A study of Saccharomyces cerevisiae with 7 samples.

Results

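The genes described here encode the proteins of the mitochondrial ribosome of *Saccharomyces cerevisiae*. They were chosen by name, as the nuclear genes called *MRPL*, *MRPS*, *MRP* or *RSM* followed by a number. The rule finds 66 of the 5110 genes measured, on 14 chromosomes. By name and annotation, 37 belong to the large subunit and 28 to the small subunit. The remaining gene, *MRP8*, carries the name but is placed in neither. RefSeq describes 64 of the 66 as mitochondrial ribosomal proteins. The exceptions are *MRP8* and *RSM22*, which is annotated as a methyltransferase and was counted with the small subunit because of its name. A further 13 nuclear genes with a ribosomal protein description and other names (*IMG1*, *NAM9* and *PET123* among them) fall outside the rule.

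The mitochondrial ribosome translates the few proteins that the mitochondrial genome encodes, most of them core subunits of the respiratory chain and the ATP synthase. In yeast its RNAs and 1 protein, Var1, are made inside the organelle. All of its other proteins are encoded in the nucleus, translated in the cytosol and imported. Some have counterparts in all ribosomes or in bacteria, and others are found only in mitochondria. Puf3, an RNA-binding protein, binds an element in the 3′ ends of many nuclear messages for mitochondrial proteins and controls their decay and translation. The genes are best known in yeast for respiratory growth, since a strain that cannot translate in mitochondria cannot respire.

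RNA was sequenced from 7 genotypes, with 1 library each and no replicates. The survey held wild type and deletions of *SIR2*, *FPR3*, *FPR4* or both *FPR3* and *FPR4*, all in the BY4741 background, and the Δfpr3Δfpr4 strain was made from the Δfpr3 strain. Fpr3 and Fpr4 are paralogous nucleolar prolyl isomerases that act as histone chaperones, and Sir2 is a histone deacetylase. The other 2 strains, Δfpr3Δtrf5 and Δfpr3Δfpr4Δtrf5, were haploid progeny of a genetic screen, and both lacked *FPR3* and *TRF5*, the gene for the poly(A) polymerase of the TRAMP5 complex that marks nuclear RNA for decay. Calls and fold changes compared them only with each other. By the study's methods the parent of the screen lacked *FPR3* and *FPR4* on its chromosomes and carried *FPR4* on a plasmid marked with *URA3*. Progeny were selected to keep the plasmid or to lose it. These 2 strains may thus also differ by the plasmid and by selection, which cannot be told apart from *FPR4*. The parent of the screen was built in another strain background than BY4741. *LYP1* had 0 reads in both strains and 180 to 216 reads in the survey libraries. Where levels of these 2 strains stand beside the survey, background, *TRF5* and selection differ too and cannot be told apart. Every culture was a single colony isolate grown to midlog phase in rich YPD medium, whose glucose yeast ferments. RNA was depleted of rRNA.

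Counted reads ranged from 627679 in Δfpr3Δfpr4Δtrf5 to 1242534 in Δsir2. Each deleted gene had 0 reads in its strain, apart from 2 reads of *TRF5* in Δfpr3Δfpr4Δtrf5. In Δfpr3Δtrf5 *FPR4* had 186 reads, while *URA3*, the marker of the plasmid, had 0 reads in this and every other library, so these files do not show whether *FPR4* was on the plasmid there. The mitochondrial genome gave 3.26% to 4.73% of the reads, and *VAR1* had between 17 and 31 reads in a library. Levels are given as RPKM, the count divided by gene length and by the total of the library. A gene was called higher or lower by a chi-square test of its reads against all other reads of 2 libraries, with Benjamini-Hochberg adjustment at 0.05 over every gene whose reads in both libraries summed to more than 5, and a change of at least 1.3-fold in RPKM plus 1. Such a call compares 2 libraries and not 2 conditions, and the intervals given are 95% intervals for counting error only.

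The sequence after the stop codon is shown first, because of the 3 elements searched it is the one most of the genes share. The Puf3 element was searched as TGTANATA, where N is any base, on the sense strand in the 200 bases after the stop codon. It was found in 64 of the 66 genes (97.0%), against 755 of 5041 nuclear protein-coding genes (15%), 6 of 138 cytosolic ribosomal protein genes (4.35%) and 4 of 34 nuclear oxidative phosphorylation genes (11.8%). The 2 genes with no match were *MRP8* and *RSM22*, the same 2 that RefSeq does not describe as ribosomal proteins. All 13 mitochondrial ribosomal protein genes with other names had a match as well. The members held 78 elements, and 13 genes had more than 1. With A at the free position there were 36 elements, with T 24, with C 17 and with G 1. The examples below are from genes that the later results turn on. They are 30 bases of the R64 genome (the RefSeq copy of sacCer3), read 5′ to 3′ on the strand of the gene, with the element in capitals.
*MRPS12* (small subunit, counterpart of bacterial S12, chrXIV:694269-694298, minus strand): atacaacctttTGTAAATAgcaatgaccat
*MRPS8* (small subunit, counterpart of bacterial S8, chrXIII:572761-572790, plus strand): tatacggaccaTGTAAATAataatattata
*RSM18* (small subunit, counterpart of bacterial S18, chrV:253886-253915, minus strand): atagttctgtcTGTAAATAtacaatatgta
*MRP13* (small subunit, mitochondria-specific, chrVII:647064-647093, minus strand): ataaacataccTGTAAATActaaaaagtag
*MRPL23* (large subunit, counterpart of bacterial L13, chrXV:612535-612564, plus strand): tcttcaatccaTGTATATAtttatctgtta
*MRPL35* (large subunit, mitochondria-specific, chrIV:1111710-1111739, plus strand): ttatagtatccTGTACATAtaaaataacgt
*MRPL28* (large subunit, mitochondria-specific, the first of 2 elements, chrIV:1386537-1386566, plus strand): ctgtctcctgcTGTAAATAactgatgatca
*MRPL37* (large subunit, mitochondria-specific, chrII:741638-741667, plus strand): tttggtatcctTGTAAATAaatatgtgtgt

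In 5 of these 8 examples the base 2 positions before the element is C. Over the members it was C at 51 of 78 elements (65.4%), and over the other nuclear genes at 185 of 743 (24.9%), a feature looked at after the sites were seen. The first element lay 8 to 139 bases after the stop codon, with a median of 51, while the median of the 691 other genes with an element was 60. No member had its first element beyond base 150, which was the case for 9.99% of those genes. Before the start codon the members were not set apart in the same way. AATTTT, a core of the rapid growth element, was found on either strand of the 250 bases before the start codon in 24 of 66 members (36.4%) and in 49.9% of all nuclear protein-coding genes. CCAAT, which the Hap complex of respiratory gene activation binds, was found in 19 members (28.8%) and in 36.4% of all these genes, but in 85.3% of the nuclear oxidative phosphorylation genes. These are matches of letters, not bound sites.

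**Figure D1:**
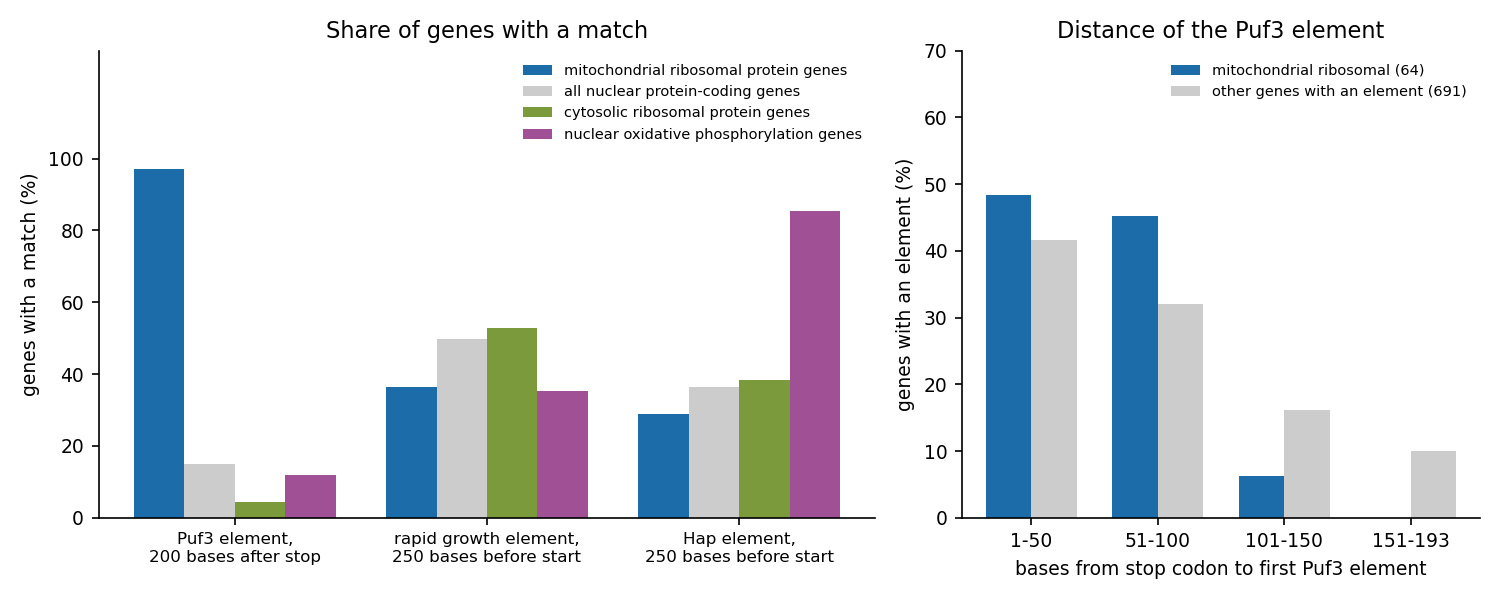
The left panel gives the percentage of genes with a match to 3 sequence elements in 4 groups of genes, and the right panel the percentage of genes by the distance, in bases, from the stop codon to the first Puf3 element. The Puf3 element stands at 97.0% in the mitochondrial ribosomal protein genes and at 15% in all nuclear protein-coding genes, and the Hap element at 28.8% and 36.4%.

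The mitochondrial ribosomal protein genes were expressed at the level of an average gene. In wild type their median was 41.6 RPKM, close to the 37.6 RPKM of all nuclear protein-coding genes. The median was 1000 RPKM for the cytosolic ribosomal protein genes and 135 RPKM for the nuclear oxidative phosphorylation genes. The median was 41.1 RPKM in the large and 50.4 RPKM in the small subunit. Genes whose proteins have counterparts in all ribosomes and genes of mitochondria-specific proteins lay close together, at 43.9 and 42.5 RPKM in the large subunit and 53.0 and 48.1 RPKM in the small. The genes are short, with a median length of 706.5 bases against 1284 for all nuclear protein-coding genes. Short genes at this level gave few reads, and the median member had 28.5 reads in wild type and between 20.5 and 32 in the other libraries. The lowest count of any member in any library was 5.

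Within the small subunit, the highest wild-type levels were those of *MRPS12* at 166 RPKM (133 to 206), *RSM19* at 99.4 RPKM (67.1 to 142) and *MRPS9* at 83.1 RPKM. They encode the counterparts of bacterial S12, S19 and S9. *MRPS12* and *RSM19* are also neighbours on chromosome XIV, at 694361 to 694822 and 695052 to 695327, on the same strand with 229 bases between them, and no other members are next to each other. In the large subunit, *MRPL33* (L30) at 73.6 RPKM, *MRPL19* (L11) at 72.9 RPKM and *MRPL31* (mitochondria-specific) at 71.6 RPKM led, and their intervals overlap. *MRP8* was at 107 RPKM (84.2 to 133), above every large subunit gene. The lowest were *RSM22* at 11.6 RPKM (7.46 to 17.3), *MRPS8* at 13.7 RPKM (5.5 to 28.2) and *RSM28* (mitochondria-specific) at 20.2 RPKM in the small subunit. In the large subunit they were *MRPL27* (mitochondria-specific) at 16.6 RPKM (7.17 to 32.7), *MRP20* (L23, by the exit of the peptide tunnel) at 19.6 RPKM and *MRPL4* (L29) at 21.9 RPKM. The order was only partly kept between libraries. Of the 10 highest genes in wild type, 5 or 6 were among the 10 highest in each of the other survey libraries, and 3 and 4 in Δfpr3Δtrf5 and Δfpr3Δfpr4Δtrf5.

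**Figure D2:**
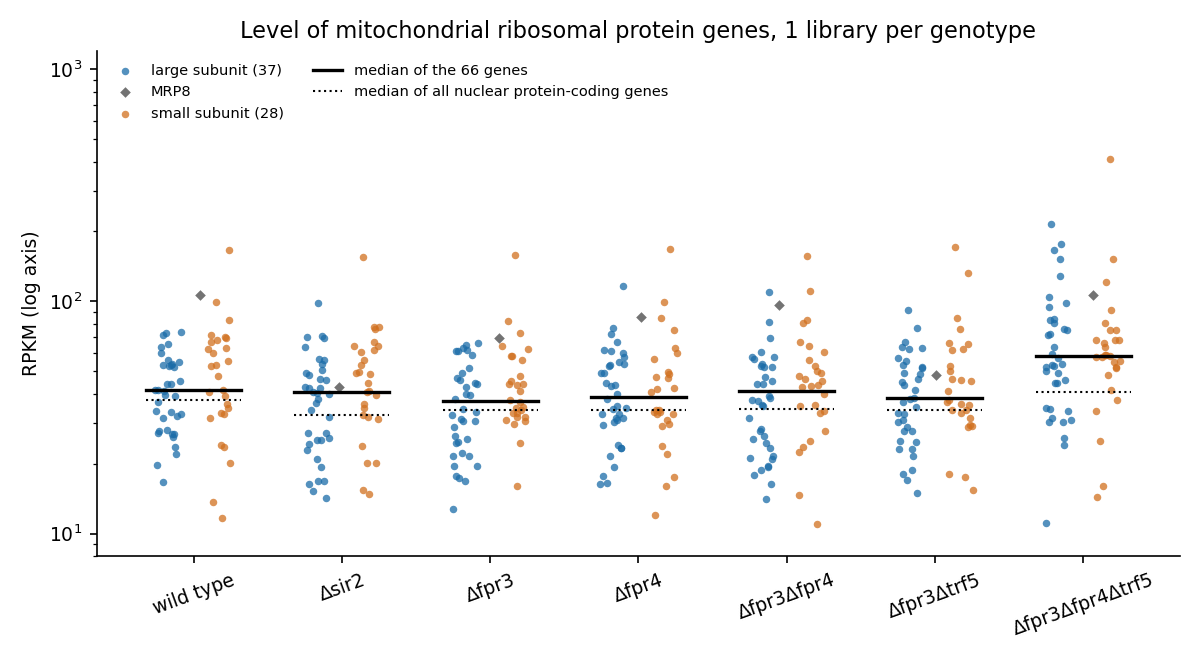
Each point is the RPKM (log axis) of 1 gene in 1 library, coloured by subunit, with a line at the median of the 66 genes and a dotted line at the median of all nuclear protein-coding genes. The median of the 66 genes lies between 37.3 and 41.6 RPKM in the first 6 libraries and at 57.9 RPKM in Δfpr3Δfpr4Δtrf5, where *MRPS12* reaches 410 RPKM.

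Together the 66 genes took 0.212% of the counted reads in wild type (Wilson interval 0.204% to 0.221%), 0.192% in Δsir2, 0.186% in Δfpr3, 0.201% in Δfpr4 and 0.200% in Δfpr3Δfpr4. The share was 0.189% in Δfpr3Δtrf5 (0.180% to 0.198%) and 0.282% in Δfpr3Δfpr4Δtrf5 (0.269% to 0.296%). The last library, of a strain from the screen, is the only one of the 7 whose interval lies above that of wild type.

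Across the 5 survey libraries fewer of these genes than of all genes differed beyond counting error. In a chi-square test of each gene's reads over these libraries with 4 degrees of freedom, which was added after the data were seen, 15 of 66 members (22.7%) had unequal shares, against a background of 47.2% of 4661 genes with more than 25 reads in all. Among 940 other nuclear genes within the quartiles of the members' read counts it was 34.7%. The median chi-square per degree of freedom was 1.63 for the members and 2.05 for those genes, where counting error alone gives 0.839. The highest and lowest survey library differed by a median of 1.85-fold in RPKM, and by less than 2-fold in 38 genes. The range ran from 1.08-fold in *MRPS12*, which stayed between 155 and 168 RPKM, to 4.57-fold in *MRPS8*. Wild type was the highest of the 5 libraries for 19 members, Δfpr4 the highest for 17 and Δfpr3 the lowest for 19, where an equal share would be 13.2. The same count was not made over all genes. Their median log2 fold change against wild type was also negative, at -0.13, -0.10, -0.10 and -0.09 in Δsir2, Δfpr3, Δfpr4 and Δfpr3Δfpr4.

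The 4 survey comparisons share the wild-type library, so that a high or low count there enters all of them. *MRPS8* had 7 reads in wild type, 36 in Δsir2, 32 in Δfpr3, 16 in Δfpr4, 16 in Δfpr3Δfpr4, 11 in Δfpr3Δtrf5 and 20 in Δfpr3Δfpr4Δtrf5. Its wild-type level of 13.7 RPKM was the lowest of the 7, and the others ran from 28.7 to 68.1 RPKM. *MRPL7*, the counterpart of bacterial L5, had 61, 40, 31, 45, 42, 20 and 19 reads in the same order of libraries, and its wild-type level of 63.5 RPKM was the highest of the 7. *MRPS16*, the counterpart of bacterial S16, had 25, 7, 14, 10, 16, 15 and 21 reads, with wild type the highest of the survey at 62.5 RPKM and Δsir2 the lowest at 15.4 RPKM.

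**Figure D3:**
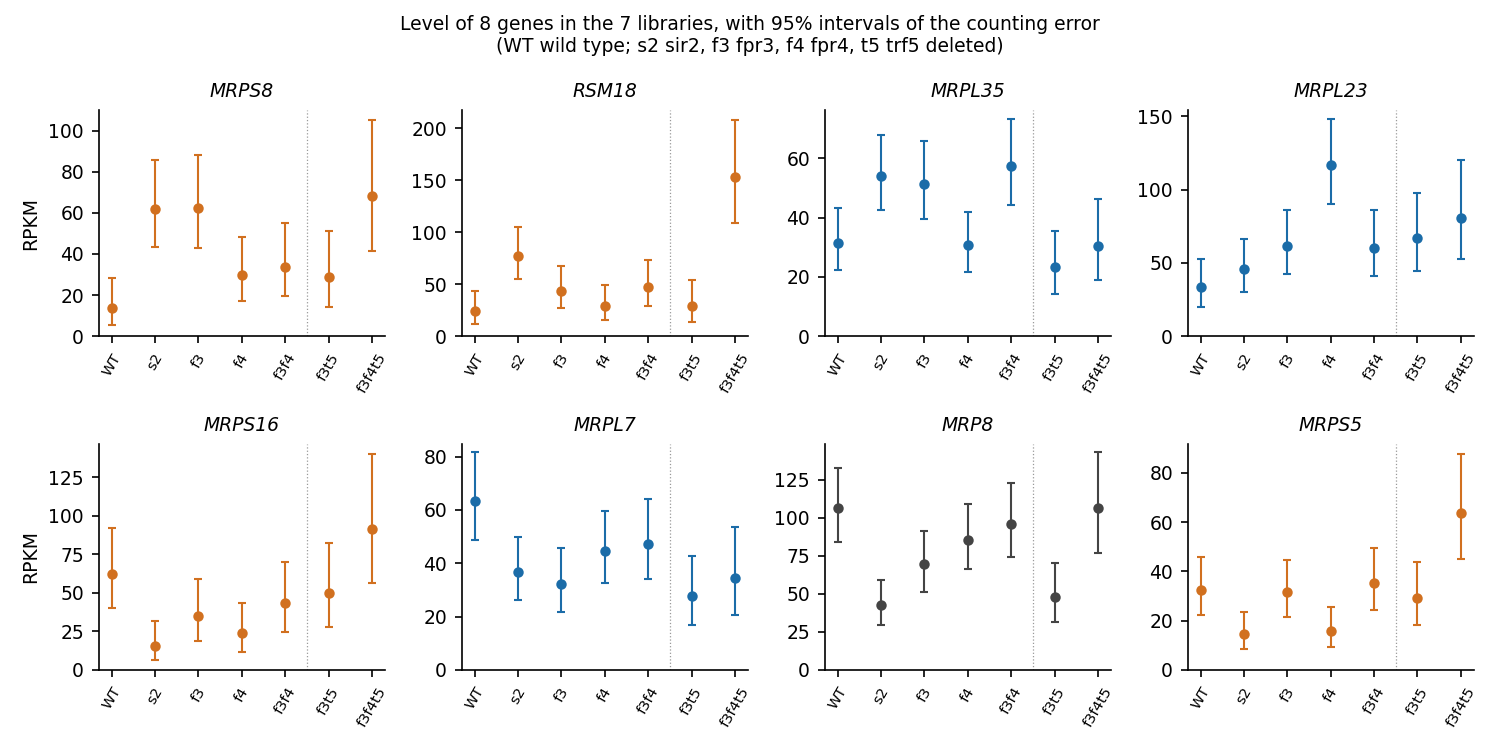
RPKM of 8 genes in each of the 7 libraries, with 95% intervals of the counting error, and a dotted line between the survey and the Δtrf5 strains. *MRPS8* is lowest in wild type at 13.7 RPKM and *MRPL7* highest there at 63.5 RPKM, while *MRPL23* is highest in Δfpr4 at 117 RPKM and *RSM18* in Δfpr3Δfpr4Δtrf5 at 153 RPKM.

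In Δsir2, 3 of the 66 genes were called higher than in wild type and 6 lower (4.55% and 9.09%), where 5.2% and 14.6% of all 4766 tested genes were. The members' median log2 fold change was -0.11, beside -0.13 for all genes and -0.03 for other nuclear genes within the quartiles of the members' lengths. The genes called higher were *MRPS8* (log2 fold change 2.10, 0.99 to 3.59), *RSM18* with 40 reads against 11 (1.64, 0.69 to 2.79) and *MRPL35* with 74 against 38 (0.76, 0.19 to 1.38). The largest falls were in *MRPS16* (-1.95, -3.47 to -0.77), in *MRPL20*, a mitochondria-specific large subunit gene with 12 reads against 34 (-1.63, -2.77 to -0.70), and in *MRP8* with 35 against 77 (-1.30, -1.94 to -0.73). The chi-square adjusted p was 0.000583 for *MRPS8*, 0.00294 for *MRPS16* and 4.28e-05 for *MRP8*. The other genes called lower, *MRPL7*, *MRPL22* and *MRPS5*, lost the call when the median of all genes was set to 0, which left 3 of the 6, and their log2 fold changes were then -0.65, -0.72 and -0.96. That step added *RSM22* to the genes called higher (0.86) and turned the members' median to 0.02.

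In Δfpr3, 1 gene was called higher and 2 lower (1.52% and 3.03%), against 4.19% and 8.07% of 4771 genes. The members' median was -0.20, beside -0.10 for all genes and 0.00 for genes of the same length range. The log2 ratio of their summed reads was -0.19 (-0.28 to -0.11). The medians were -0.31 in the large and -0.08 in the small subunit. The ratios of summed reads were alike, at -0.17 (-0.29 to -0.04) in the large and -0.19 (-0.32 to -0.07) in the small subunit. *MRPS8* was called higher again (2.11, 0.99 to 3.62, chi-square adjusted p = 0.0012). The genes called lower were *MRPL7* (-0.95, -1.65 to -0.33) and *RSM23*, the counterpart of a mitochondria-specific small subunit protein of humans, with 61 reads against 106 (-0.78, -1.28 to -0.33). *MRPS8* and *MRPL7*, called in both comparisons with wild type, had similar levels in the mutants, at 61.9 and 62.6 RPKM and at 36.6 and 32.3 RPKM in Δsir2 and Δfpr3, and none of these 3 genes was called when Δfpr3 was set against Δsir2.

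In Δfpr4, 1 gene was called in each direction (1.52%), against 3.87% higher and 9.27% lower of 4777 genes. *MRPL23*, the counterpart of bacterial L13, had 66 reads in Δfpr4 and 18 in wild type (log2 fold change 1.77, 1.03 to 2.64, chi-square adjusted p = 1.68e-05). Its levels in the order wild type, Δsir2, Δfpr3, Δfpr4, Δfpr3Δfpr4, Δfpr3Δtrf5 and Δfpr3Δfpr4Δtrf5 were 33.5, 45.8, 61.4, 117, 60.4, 67.0 and 81.0 RPKM. Δfpr4 was the highest of the 7, and the gene was also called higher there against Δsir2. *MRPS16* was called lower (-1.36, -2.62 to -0.29) with 10 reads against 25, by the chi-square test but not by an exact binomial test. The members' median was -0.11, beside -0.10 for all genes, with 0.02 in the large and -0.23 in the small subunit. The ratios of the subunits' summed reads were -0.01 (-0.13 to 0.11) and -0.13 (-0.24 to -0.01), and these intervals overlap.

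In Δfpr3Δfpr4, 2 genes were called higher and 1 lower (3.03% and 1.52%), against 5.07% and 9.36% of 4755 genes. The genes called higher were *MRPL35* with 64 reads against 38 (0.85, 0.27 to 1.49) and *MRPL6*, the counterpart of bacterial L6, with 53 against 32 (0.83, 0.18 to 1.52). The exact binomial test did not call *MRPL6*, and neither gene was called against Δsir2, where the log2 fold changes were 0.09 for *MRPL35* and 0.22 for *MRPL6*. *MRPL35* stood between 51.4 and 57.4 RPKM in Δsir2, Δfpr3 and Δfpr3Δfpr4, and at 23.2 to 31.5 RPKM in the other 4 libraries. *MRP13*, a mitochondria-specific small subunit gene, had 62 reads in wild type, 63 in Δsir2, 37 in Δfpr3, 39 in Δfpr4 and 23 in Δfpr3Δfpr4. It was called lower in Δfpr3Δfpr4 (-1.28, -2.07 to -0.60, chi-square adjusted p = 0.00146), and its levels there and in both single mutants, between 22.3 and 33.3 RPKM, lay under the 49.7 and 55.6 RPKM of Δsir2 and wild type. *MRP13* was not called in Δfpr3 or Δfpr4, whose intervals (23.4 to 45.8 and 23.6 to 45.4 RPKM) overlap that of wild type (42.6 to 71.3). It was at 35.9 RPKM in Δfpr3Δtrf5 and at 57.8 RPKM in Δfpr3Δfpr4Δtrf5, the highest of the 7 libraries. Those 2 strains also differ from the survey by *TRF5* and background, and the part of Fpr3 and Fpr4 in these levels was not tested. The members' median was -0.12, beside -0.09 for all genes.

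Over the survey, 53 of 66 genes (80.3%) were called in no comparison with wild type, against 62.7% of the 4692 genes tested in all 4, and 4 (6.06%) in more than 1, against 14.9%. In all 3 of Δfpr3, Δfpr4 and Δfpr3Δfpr4, 0 members were called in the same direction, where 2.83% of all genes were, a share that comes to few genes among 66. In each of the 4 comparisons the percentage of members called, in either direction, was under that of all genes, but calls also depend on reads and length. Among other genes within the quartiles of the members' reads, 2.89% were called higher in Δsir2, under the 4.55% of the members, and the other 7 shares were above those of the members. With length also within the quartiles, the members' share of higher calls was the larger in Δsir2 (2.51% of the other genes) and in Δfpr4 (1.45%, against 1.52%). Setting the median of all genes to 0 moved the calls over all genes from 248 higher and 697 lower to 418 and 459 in Δsir2, from 200 and 385 to 300 and 213 in Δfpr3, from 185 and 443 to 292 and 258 in Δfpr4, and from 241 and 445 to 356 and 302 in Δfpr3Δfpr4. Of the members, 3 were then called higher and 2 lower in Δfpr3, 1 and 0 in Δfpr4, and 2 and 1 in Δfpr3Δfpr4.

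**Figure D4:**
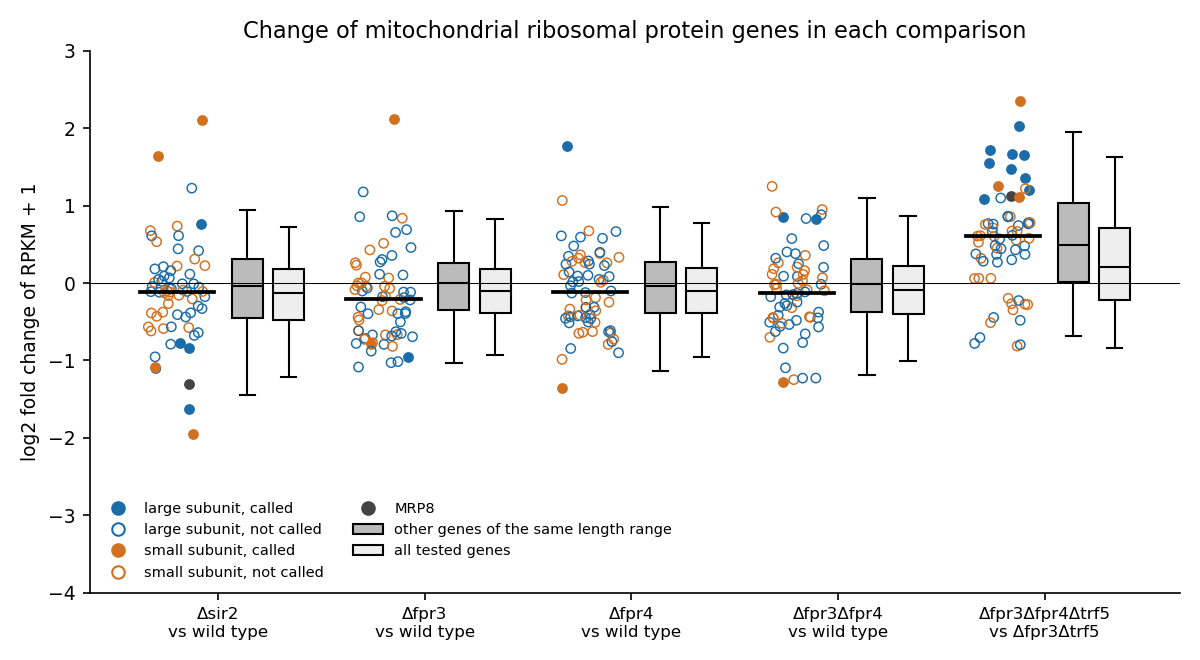
Log2 fold change of RPKM plus 1 in 5 comparisons, with 1 point per mitochondrial ribosomal protein gene (filled where called), a thick line at their median, and boxes (quartiles, with whiskers from the 5th to the 95th percentile) for other genes of the same length range and for all tested genes. The members' medians lie between -0.20 and -0.11 in the survey and at 0.60 in Δfpr3Δfpr4Δtrf5 against Δfpr3Δtrf5, where the boxes also lie higher, with medians of 0.49 and 0.20.

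The members' median differed more from 0 between Δfpr3Δfpr4Δtrf5 and Δfpr3Δtrf5 than in the survey, a comparison that addressed the loss of Fpr4 in cells without Fpr3 and TRAMP5. Of the 66 genes, 13 (19.7%) were called higher and 0 lower, against 20.7% higher and 7.42% lower of all 4733 tested genes, so the share called higher was that of the background. The members' median was 0.60, beside 0.20 for all genes, and 53 genes were above 0. Their summed reads came to 1771 and 1547, a log2 ratio of shares of 0.58 (0.48 to 0.68). The ratio was 0.68 (0.53 to 0.82) in the large and 0.45 (0.31 to 0.60) in the small subunit, with medians of 0.66 and 0.57. With the median of all genes set to 0, the members' median was 0.40, with 9 genes called higher and 1 lower. By the same step the calls over all genes went from 978 higher and 351 lower to 623 and 643.

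The largest rise was in *RSM18*, with 40 reads in Δfpr3Δfpr4Δtrf5 and 10 in Δfpr3Δtrf5 (2.34, 1.36 to 3.55, chi-square adjusted p = 2.37e-06). At 153 RPKM it was above all other libraries of the gene, which ran from 24.1 to 77.2 RPKM. *MRPL28*, a mitochondria-specific large subunit gene, rose with 29 reads against 9 (2.03, 0.95 to 3.34), and *MRP49*, also mitochondria-specific, from 53.1 to 177 RPKM (1.72, 0.92 to 2.61). *MRPS12* had 119 reads against 65 (1.25, 0.81 to 1.72, chi-square adjusted p = 9.21e-08). Its level was 410 RPKM, against 155 to 172 RPKM in the 6 other libraries, and the intervals do not overlap. *RSM19*, its neighbour on the same strand, had 13 reads against 30 and was not called (-0.81, -1.88 to 0.16). The intervals of the 2 neighbours' log2 fold changes do not overlap. The other genes called higher were *MRPL16*, *MRPL27*, *MRPL31*, *MRPL33*, *MRPL37*, *MRPL40*, *MRPL50*, *MRPS5* and *MRP8*, with log2 fold changes from 1.08 to 1.67. *MRPL37* reached 215 RPKM from 76.8 RPKM, and *MRPL40*, the counterpart of bacterial L24, had 28 reads against 11.

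*MRP8* and *MRPS5* were called in opposite directions in 2 comparisons. *MRP8* had 107, 42.7, 69.3, 85.6, 96.1, 48.1 and 106 RPKM in the order of libraries used above. Its level was thus close to that of wild type in Δfpr3Δfpr4Δtrf5 and lower in Δfpr3Δtrf5. Wild type also differs from these 2 strains by *TRF5* and background. *MRPS5*, the counterpart of bacterial S5, had 32.7, 14.8, 31.7, 16.0, 35.4, 29.1 and 63.8 RPKM. It was low in Δsir2 and Δfpr4, and highest in Δfpr3Δfpr4Δtrf5.

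Gene length moved with the difference between these 2 libraries. Among other nuclear genes the median log2 fold change was 0.91 up to 300 bases, 0.83 from 301 to 500, 0.55 from 501 to 700, 0.35 from 701 to 1000, 0.18 from 1001 to 1500 and -0.11 above 2500. The members followed the same order in the bins between 301 and 1500 bases, at 0.98 (20 genes), 0.61 (9 genes), 0.53 (23 genes) and 0.37 (9 genes), while the 4 members of up to 300 bases had -0.07. Of the 13 genes called higher, 8 were between 301 and 500 bases long. Genes within the quartiles of the members' lengths had a median of 0.49, and 32.1% of them were called higher and 2.59% lower. Where the read count also lay within the members' quartiles, the median was 0.53 and 29.5% of 176 genes were called higher. The members' median of 0.60 thus lay above that of genes of like length, while their share of calls lay below it. The part of length in the members' difference was not tested, and coverage along the genes was not analysed here. In the survey comparisons, all 4 medians over the length range lay between -0.04 and 0.00. From 301 bases up, medians of other nuclear genes mostly fell with length there too, over a smaller range. In Δfpr4 they were -0.05 from 501 to 700 bases and -0.02 from 701 to 1000. Up to 300 bases the medians were -0.15, 0.00, 0.07 and 0.24 in Δsir2, Δfpr3, Δfpr4 and Δfpr3Δfpr4, so the shortest bin did not follow in Δsir2 and Δfpr3. From 301 to 500 bases they were 0.08, 0.05, 0.00 and 0.11 in Δsir2, Δfpr3, Δfpr4 and Δfpr3Δfpr4. Above 2500 bases they were -0.21, -0.18, -0.21 and -0.21.

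**Figure D5:**
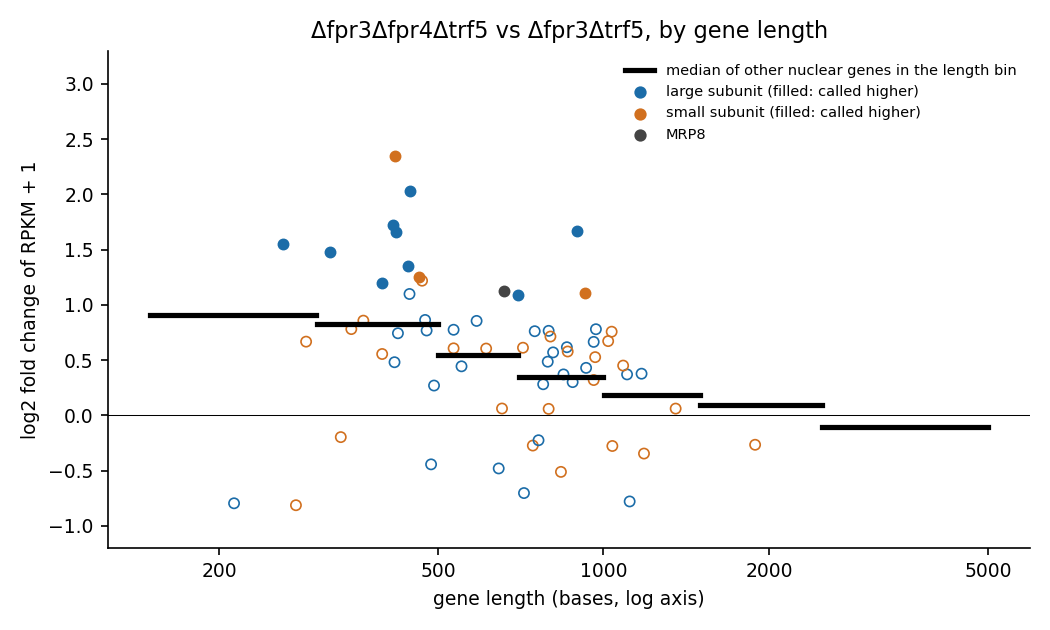
Log2 fold change of RPKM plus 1 in Δfpr3Δfpr4Δtrf5 against Δfpr3Δtrf5 by gene length (bases, log axis), with 1 point per mitochondrial ribosomal protein gene and bars at the median of other nuclear genes in each length bin. The bars fall from 0.91 in the shortest bin to -0.11 in the longest, and 8 of the 13 filled points are between 301 and 500 bases.

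The loss of Fpr4 was also seen in 2 other backgrounds. In Δfpr3Δfpr4 against Δfpr3, the members' median was 0.16 (0.01 for all genes), and their summed reads differed by 0.11 (0.02 to 0.20) on the log2 scale. The median was -0.11 in Δfpr4 against wild type (-0.10 for all genes) and 0.60 in the strains without Trf5 (0.20 for all genes). The -0.11 went to -0.01 with the median of all genes set to 0 and to 0.04 with Δsir2 as the reference. The loss of Fpr3 in cells without Fpr4, in Δfpr3Δfpr4 against Δfpr4, gave -0.06 (0.01 for all genes).

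Nearly all members have the Puf3 element, so those called and not called could not be compared by it. In Δfpr3Δfpr4Δtrf5 the median was 0.60 in the 51 members with 1 element and 0.62 in the 13 with more, and 0.18 in 665 other tested genes with an element. Those 665 genes were not matched to the members by length, and other genes of the members' length range had a median of 0.49. *PUF3* itself was at 42.3 RPKM in wild type, at 35.1 to 45.5 RPKM in the other survey libraries, and at 28.2 and 38.6 RPKM in Δfpr3Δtrf5 and Δfpr3Δfpr4Δtrf5.

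Other genes of mitochondrial translation were read from lists of names. Of 13 mitochondrial aminoacyl-tRNA synthetase genes, 5 were called lower in Δsir2 (median -0.53), 4 in Δfpr3 (-0.75), 2 in Δfpr4 (-0.13) and 1 in Δfpr3Δfpr4 (-0.41), with 0, 1, 0 and 1 higher. Over all genes 14.6%, 8.07%, 9.27% and 9.36% were called lower, so that 2 and 1 of 13 are near the background. *NAM2*, the leucine enzyme, fell in Δsir2 with 34 reads against 68 (-1.11, -1.82 to -0.57), and *MSM1*, the methionine enzyme, in Δfpr3 with 20 against 48 (-1.19, -2.09 to -0.48). In the strains without Trf5, 2 of the 13 were called higher and 0 lower (0.23), against 20.7% and 7.42% of all genes.

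The list of mitochondrial ribosome genes with other names was not the set of 13 found by description. It left out *RML2* and *QRI5* and held *PPE1*, which is not among the 13. Its 12 measured genes had medians of -0.18, -0.36, -0.01 and -0.05 in the survey, with 1 called lower in Δsir2 and 2 in Δfpr4 and 0 called higher. In Δfpr3Δfpr4Δtrf5 against Δfpr3Δtrf5, 2 of the 11 tested were called higher and 0 lower, with a median of 0.63. Over all genes 20.7% were called higher and 7.42% lower there, so that 2 of 11 is near the background. *IMG2*, a large subunit gene, had 27 reads against 7 (2.27, 1.10 to 3.78), and *RTC6*, the counterpart of bacterial L36, 31 against 16 (1.33, 0.42 to 2.31). Of 8 ribosome assembly genes, 0 were called in the survey and 1 was called higher in the strains without Trf5, the helicase gene *MRH4* (1.05, 0.14 to 2.15). Of 9 translation factor genes, *GUF1* was called lower in Δfpr3 (-1.79, -4.26 to -0.66) and *MEF2*, a factor of ribosome recycling, in Δfpr3Δfpr4Δtrf5 (-1.79, -4.13 to -0.59). Of 16 translational activators, which bind single mitochondrial messages, at most 1 was called in each direction in any survey comparison. In the strains without Trf5, 2 were called higher and 0 lower. Over all genes 3.87% to 5.2% were called higher and 8.07% to 14.6% lower in the survey, which comes to few genes in lists of this size. *CBS1*, the activator of the cytochrome *b* message, was called higher in Δfpr3Δfpr4 with 24 reads against 4 (2.49, 1.16 to 4.69).

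The nuclear oxidative phosphorylation genes had medians of 0.25, 0.14, 0.18 and 0.14 in Δsir2, Δfpr3, Δfpr4 and Δfpr3Δfpr4. Those of the mitochondrial ribosomal protein genes were -0.11, -0.20, -0.11 and -0.12, beside -0.13, -0.10, -0.10 and -0.09 for all genes. With the median of all genes set to 0 they were 0.02, -0.10, -0.01 and -0.04, a step not made for the oxidative phosphorylation genes. Other nuclear genes of 301 to 500 bases had medians of 0.08, 0.05, 0.00 and 0.11. Of the 34 oxidative phosphorylation genes, 3, 4, 2 and 0 were called higher in the survey, and 0, 0, 0 and 1 lower. The shares of all genes in these comparisons were 5.2%, 4.19%, 3.87% and 5.07% higher and 14.6%, 8.07%, 9.27% and 9.36% lower. In Δfpr3Δfpr4Δtrf5 against Δfpr3Δtrf5, 16 were called higher and 0 lower, with a median of 0.82. These are short genes as well, with a median length of 454.5 bases. Among other nuclear genes of 301 to 500 bases, 45.3% were called higher in that comparison, with a median of 0.83. Over all genes, 20.7% were called higher and 7.42% lower. *ATP14*, a subunit of the ATP synthase, had 119 reads against 27 (2.51, 1.91 to 3.18). The cytosolic ribosomal protein genes, of a median length of 771 bases, had a median of 0.17 there, with 43 of 138 called higher and 15 lower. In Δsir2, 63 were called higher and 0 lower (0.36), against 5.2% and 14.6% of all genes. Of 9 regulators, *SFP1*, an activator of cytosolic ribosomal protein genes, was called lower in Δsir2 with 107 reads against 166 (-0.80, -1.18 to -0.46). *HAP5* and *HAP3*, which encode DNA-binding subunits of the Hap complex, were called higher in Δfpr3Δfpr4 (14 reads against 3) and in Δfpr3Δfpr4Δtrf5 (15 against 5). The 3 reads of *HAP5* in wild type would not be told from 0. *HAP4*, the activating subunit of the Hap complex, was called higher in Δfpr3Δfpr4 (0.41, 0.19 to 0.63) and in Δfpr3Δfpr4Δtrf5 (0.74, 0.35 to 1.15), with 392 reads against 320 and 122 against 95. It took 122 of 627679 reads in Δfpr3Δfpr4Δtrf5, 95 of 819135 in Δfpr3Δtrf5 and 320 of 1093043 in wild type. The share of *HAP4* was thus lower in both of these strains than in wild type, which also differs from them by *TRF5* and background.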

How the data were processed

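By the study's methods, paired-end reads of rRNA-depleted RNA were aligned to sacCer3 by the authors (BWA 0.6.1-r104-tpx), with a mapping quality threshold of 5, duplicated fragments collapsed and only proper pairs kept. For 5110 genes of Ensembl 90, the authors deposited whole-number read counts on the proper strand, which are not normalized. They also deposited an RPKM, in a column named for another unit. Recomputed from count, gene length and total, the largest deviation above 20 reads was 0.0979%.

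Samples were grouped by the labels, with 1 library per genotype. Tests and intervals were computed with Python 3.11.15, pandas 2.3.3, numpy 2.4.6 and scipy 1.17.1, by the rule given with the results. Fold changes are on the log2(RPKM + 1) scale, with exact binomial intervals of the gene's reads in 2 libraries; intervals of levels are exact Poisson intervals, and those of shares are Wilson intervals. A level of 3 reads or fewer would not be told from 0. Coordinates of all 66 genes equal those of the R64 reference, from whose genome the sequences were read, since no table of promoters was used. Members overlap no other measured gene. *MRPL44* has an intron, which is counted in its length.

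The members and lists were chosen with earlier results of these data known. Genes named are the 3 highest and lowest of each subunit in wild type, the 3 largest called rises and falls of each comparison, members called in the same direction in 3 or more comparisons or in opposite directions, *MRP8*, and up to 3 called genes of each list; *PUF3* and *HAP4* were named by rule, and other names once values had been seen.

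The alternatives tried were a pseudocount of 0.1 or 5, every gene with a read, more than 5 reads in each library, folds of 1.5 and 2, rescaling to a median of 0, size factors, an exact binomial test, leaving out *MRP8*, and Δsir2 as the reference.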

Additional observations from a re-analysis of the deposited data

Results flagged for a closer look

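The members' median log2 fold change on loss of Fpr4 differed in sign between backgrounds, by a small negative value in 1 of them. It was -0.11 in Δfpr4 against wild type, 0.16 in Δfpr3Δfpr4 against Δfpr3, and 0.60 in Δfpr3Δfpr4Δtrf5 against Δfpr3Δtrf5. The medians of all genes were -0.10, 0.01 and 0.20. The -0.11 was -0.01 with rescaling to a median of 0, -0.02 with size factors and 0.04 with Δsir2 as the reference. The negative value thus nearly vanished with either scaling. Its sign turned only with Δsir2 as the reference, a comparison that also differs by *SIR2*. With 1 library per genotype, the difference between backgrounds was not tested.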

How the results depend on the processing

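No paired analysis was possible because each genotype had 1 library, and no library could be left out. Of 144 values under the alternatives, 116 stayed in direction and within the limits set. Rescaling to a median of 0 and size factors moved the same results by nearly the same amounts. Under both, the median turned from -0.11 to 0.02 in Δsir2 with 3 genes lower, went to -0.10 in Δfpr3 with 3 higher, left 0 lower in Δfpr4, and gave 1 lower (*MRP7*, chosen after its value was seen) in Δfpr3Δfpr4Δtrf5. The medians were -0.01 and -0.02 in Δfpr4 and 0.40 and 0.39 in Δfpr3Δfpr4Δtrf5, and -0.04 with rescaling in Δfpr3Δfpr4. With Δsir2 as the reference, the median was -0.09 in Δfpr3 with 3 higher and 0 lower, turned to 0.04 in Δfpr4 with 4 higher and 2 lower, and turned to 0.06 in Δfpr3Δfpr4. Of the 8 calls in these 3 comparisons, 2 were kept, *MRPL23* and *MRP13*. At 2-fold, 0 genes were lower in Δfpr3 and 0 higher in Δfpr3Δfpr4. The exact binomial test left 0 lower in Δfpr4 and 1 higher in Δfpr3Δfpr4, and lost *MRPL22* in Δsir2 and *MRPL27* in Δfpr3Δfpr4Δtrf5. Of the 13 genes called higher there, 9 were kept with rescaling and 13 at 2-fold. The pseudocounts, the filters on reads and leaving out *MRP8* moved no count by over 1.5 times. With 20.5 to 32 reads for the median member, the smallest change of a member called in the 5 comparisons was 0.76 (log2) and the largest not called 1.25.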
